A study of Mus musculus with 4 samples.

Results

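Wt1, Tcf21, Lmx1b, Foxc2, Foxd1, Foxl1 and Dach1 encode transcription factors of the podocyte, the epithelial cell that wraps the glomerular capillary. They were chosen by name, through the Ensembl identifiers of the deposited table, which held all 7 among its 22809 genes. Poly(A) RNA of freshly isolated mouse glomeruli, the filtering units of the kidney, was sequenced in 4 libraries. The 2 control libraries came from untreated mice labelled wild type, and the 2 others from mice labelled as a podocyte-specific knockout of HDAC, named in the series' title as Hdac1 and Hdac2. All mice were 3 weeks old and each library pooled 2 mice, so the spread between libraries is one between pools. Neither the driver of the deletion nor its alleles are named in these sources. The deletion is restricted to podocytes by its label, while a whole glomerulus holds capillary, mesangial and Bowman's capsule cells besides, and isolates carry over tubule. The knockout-labelled libraries were compared with the control libraries, on the question of what loss of both enzymes in podocytes does to the RNA of the glomerulus.

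WT1 is a zinc finger protein needed to form the kidney and to keep podocytes differentiated, and it binds the genes of many slit diaphragm proteins. LMX1B is a LIM homeodomain protein mutated in nail-patella syndrome, TCF21 a basic helix-loop-helix protein that pairs with E proteins, and FOXC2, FOXD1 and FOXL1 are forkhead proteins. FOXD1 marks the stromal progenitors of the developing kidney, TCF21 is also made by stromal cells, and FOXL1 by mesenchyme. DACH1 is a corepressor-binding relative of the SKI family that works with EYA proteins. Histone deacetylases 1 and 2 are catalytic subunits of corepressor complexes.

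The sequences that follow show the bases before Wt1, coding stretches that forkhead genes share, and the promoters of Lmx1b and Tcf21. The shared stretches bear on how reads were assigned to these genes. Wt1 (chromosome 2, 105126529 to 105173616, plus strand in GRCm38) starts 18 bases from Wt1os, an antisense gene that runs the other way (105076538 to 105126510, minus strand). The stretch just before Wt1 holds the first 50 bases of Wt1os, read here on the plus strand, and the bases between both genes. Capitals mark a GC box, GGGCGG, searched on both strands, which 32.7% of 32851 RefSeq promoters of GRCm38.p6 hold in the 250 bases before their start. Only 68 bases were searched for Wt1, so that share is over longer windows, and the match lies within Wt1os.
Wt1 at chr2:105126461-105126528: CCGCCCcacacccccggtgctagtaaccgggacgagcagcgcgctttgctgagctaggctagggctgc
No exon of any other annotated gene overlapped an exon of the 7 genes in GENCODE M21, so the antisense neighbour lies beside Wt1 and not across its exons. Wt1os was at 0.536 and 1.97 TPM in control pools 1 and 2 and at 0.301 and 1.40 TPM in knockout pools 1 and 2, which is lower than Wt1 in each library.

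The forkhead genes share coding sequence, and how reads from the shared part were assigned is not given in these sources. Foxc2 (chromosome 8, 121116171 to 121118895) and Foxl1 (chromosome 8, 121127940 to 121130644) are neighbours, 9044 bases apart on the plus strand, and Foxd1 lies on chromosome 13 (98354242 to 98359305, plus strand). The longest run of identical bases, all of it coding, is shown for Foxc2 with its paralog Foxc1, for Foxd1 with Foxd2, and for Foxl1 with Foxd3.
Foxc2 and Foxc1, 53 bases at chr8:121117032-121117084 in Foxc2: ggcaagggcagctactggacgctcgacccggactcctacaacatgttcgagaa
Foxd1 and Foxd2, 47 bases at chr13:98355031-98355077 in Foxd1: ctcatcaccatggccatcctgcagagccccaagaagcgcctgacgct
Foxl1 and Foxd3, 39 bases at chr8:121128237-121128275 in Foxl1: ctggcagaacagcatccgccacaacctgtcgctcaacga
Foxc2 shared 48 different 25-base words with Foxc1, Foxd1 51 with Foxd2, and Foxl1 15 with Foxd3, out of transcripts of 2725, 5064 and 2705 bases. Foxd1 also shared 44 words with Foxd3 and 28 with Foxd4, and Foxl1 15 with Foxd4 and 13 with its neighbour Foxc2. The effect of these shared stretches on the values of the 3 genes was not tested.

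Lmx1b (chromosome 2, 33560965 to 33640511, minus strand) and Tcf21 (chromosome 10, 22817281 to 22820174, minus strand) had the closest profiles of any 2 of the 7 genes over the 4 libraries, at a distance of 0.27 between their centred log2(TPM + 1) values. Their promoters are shown for that reason, as the 250 bases before the RefSeq start in GRCm38.p6, with capitals on any match to the motifs searched. The gene coordinates above are those of GENCODE M21, whose starts differ from the RefSeq starts. The Tcf21 stretch therefore overlaps the gene as given, and the Lmx1b stretch lies apart from it.
Lmx1b at chr2:33641099-33641348: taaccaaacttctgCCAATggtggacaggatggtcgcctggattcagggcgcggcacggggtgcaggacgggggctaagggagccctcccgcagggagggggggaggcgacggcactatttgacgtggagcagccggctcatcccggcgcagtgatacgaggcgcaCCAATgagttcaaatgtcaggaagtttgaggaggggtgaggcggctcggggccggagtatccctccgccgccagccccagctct
Tcf21 at chr10:22820144-22820393: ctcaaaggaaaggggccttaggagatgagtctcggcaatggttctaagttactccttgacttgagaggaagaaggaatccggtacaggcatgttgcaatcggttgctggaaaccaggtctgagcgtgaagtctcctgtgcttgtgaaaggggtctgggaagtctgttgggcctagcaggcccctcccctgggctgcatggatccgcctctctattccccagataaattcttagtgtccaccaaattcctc
Lmx1b held 2 matches to the CCAAT box, CCAAT, which 33.8% of the promoters hold, and Tcf21 held no match. The other motifs, also searched on both strands, had no match in either promoter. The motif bound by WT1 and EGR proteins, GCGTGGG, was in 4.30% of the promoters. The motif of LIM homeodomain proteins, TAATTA, was in 4.84%. An E-box spelled CAGCTG was in 13.0%, and one spelled CATCTG was in 14.4%. The forkhead motif, TGTTTNC, was in 17.8%, and the TATA box, spelled TATAAA, was in 12.4%.

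The values are TPM, reads per gene length with a common sum of 1000000 for each library, as the authors deposited them. Mitochondrially encoded genes took 402200 and 465400 TPM of that sum in control pools and 408400 and 386700 TPM in knockout-labelled pools. Whole reads could be recovered, 15969963 and 13015925 in control replicates 1 and 2 and 17674566 and 21188798 in knockout pools 1 and 2. Hdac1 was at 19.3, 18.6, 22.9 and 22.5 TPM in that order and Hdac2 at 20.2, 24.1, 23.5 and 20.9 TPM, so neither targeted transcript had a lower mean TPM in the libraries labelled knockout (Hdac1 log2 fold change 0.25, adjusted p = 0.512; Hdac2 0.01, adjusted p = 0.991, by limma). The sign for Hdac2 turned with median-ratio scaling (-0.22), quantile normalization (-0.17), a total without mitochondrial and proximal tubule genes (-0.14) and limma-voom (-0.044). Every direction given here rests on those labels. Cells other than podocytes also make both, and a gene-level value counts transcripts that lack some exons. Every listed marker of podocytes, endothelium, mesangium and tubule was above 0 in each library. The 15 podocyte markers summed to between 458 and 1218 TPM, the 9 endothelial markers to between 246 and 676 TPM, and the 12 proximal tubule markers to between 4595 and 42610 TPM, the highest being control replicate 1. Kap alone was at 31062 TPM there, and the other 11 tubule markers summed to 11550 and 8433 TPM in control pools and to 3591 and 4364 TPM in knockout-labelled pools. Much of the podocyte sum came from few genes. Npnt was at 233, 212, 231 and 229 TPM and Enpep at 147, 130, 83.2 and 101 TPM, controls first. Both were higher in control replicate 1 than in control replicate 2, unlike the median of the podocyte markers. The part of other cells in their values was not tested.

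None of the 7 transcription factors separated the groups. Wt1, Lmx1b, Tcf21 and Foxc2 had lower mean levels in knockout-labelled pools, Foxd1 and Dach1 had similar means in both groups, and Foxl1 had the fewest reads. For all 7 genes, the 5 tested included, the control and knockout-labelled values overlapped. Of the 18612 genes tested, 50.9% had no overlap in 1 direction or the other. The 5 genes with a mean of at least 1 TPM entered the test, limma on log2(TPM + 1), and 0 of them passed an adjusted p of 0.05, beside 0.00537% of all genes called lower and 0 called higher. At an unadjusted p under 0.05, limma counted 0 of the 5 genes, beside 4.46% of all genes lower and 13.4% higher, and limma-voom on the recovered reads also called 0 of them. The median log2 fold change of the 5 genes was -0.54, beside 0.17 over all genes tested. Median-ratio scaling moved the median of all genes to -0.03, and the values of Wt1, Lmx1b, Tcf21 and Foxc2 to -1.02, -0.87, -0.71 and -0.59.

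Wt1 was at 5.69 and 16.6 TPM in control pools 1 and 2 and at 3.09 and 8.24 TPM in knockout pools 1 and 2, from 236, 550, 137 and 427 reads. Knockout replicate 2 lay between both controls, and control pools differed from each other by 1.54 log2 units. The means were 11.1 ± 7.71 and 5.67 ± 3.64 TPM (SD, n = 2 each). The log2 fold change was -0.82 (SE 0.60, 95% interval -2.32 to 0.68, adjusted p = 0.543 by limma). Without control replicate 2 the log2 fold change was -0.12, and without knockout replicate 1 it was -0.23. With 2 libraries a group, the interval spans both a larger loss than the value and a gain.

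Lmx1b was at 2.34 and 5.49 TPM in control pools and at 0.786 and 3.58 TPM in knockout-labelled pools, from 78, 146, 28 and 149 reads. Knockout replicate 1 was the lowest of the 4 libraries and knockout replicate 2 lay between control pools. The log2 fold change was -0.70 (SE 0.58, 95% interval -2.15 to 0.74, adjusted p = 0.589 by limma). It was -0.02 when knockout replicate 1 was left out and -0.22 when control replicate 2 was. LDB1, the adaptor that LIM homeodomain proteins bind, had a transcript at 23.8 and 33.7 TPM in control pools and 37.0 and 42.9 TPM in knockout-labelled pools. Ldb1 was thus higher in both knockout-labelled libraries than in either control, as were 36.7% of all genes tested. Its log2 fold change of 0.48 did not pass (adjusted p = 0.347 by limma).

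Tcf21 was at 2.67 and 4.94 TPM in control pools and at 0.892 and 4.43 TPM in knockout-labelled pools, from 42, 62, 15 and 87 reads. Knockout replicate 1 was the lowest library, with a 95% counting interval of 0.499 to 1.47 TPM, and knockout replicate 2 lay between the control values. The log2 fold change of -0.54 (SE 0.58, 95% interval -1.99 to 0.91, adjusted p = 0.682 by limma) became 0.22 without knockout replicate 1 and -0.20 without control replicate 2. The E protein genes Tcf3, Tcf4 and Tcf12, whose products pair with TCF21, had log2 fold changes of 0.67, 0.31 and 0.32. None of these 3 passed, with adjusted p of 0.283, 0.670 and 0.510 by limma. Tcf3 and Tcf12 were higher in both knockout-labelled libraries than in either control, as were 36.7% of all genes tested.

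Foxc2 was at 1.65 and 5.22 TPM in control pools and at 1.13 and 3.20 TPM in knockout-labelled pools, from 30, 76, 22 and 73 reads. The log2 fold change was -0.44 (SE 0.55, 95% interval -1.83 to 0.95, adjusted p = 0.739 by limma), and it became 0.18 with control replicate 2 left out and 0.05 with knockout replicate 1 left out. Its paralog Foxc1, also made by podocytes, was at 2.28 and 4.93 TPM in control pools and at 2.82 and 6.10 TPM in knockout-labelled pools. The log2 fold change of Foxc1 was 0.24 (SE 0.46, adjusted p = 0.833 by limma), of the opposite sign to that of Foxc2, and the difference between the paralogs was not tested. Both paralogs were higher in replicate 2 than in replicate 1 of each group.

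Foxl1 and Foxd1 had means under 1 TPM and were not tested. Foxl1 had 5 and 23 reads in control pools and 6 and 22 reads in knockout-labelled pools, which is 0.276, 1.59, 0.310 and 0.972 TPM. With 5 reads, the 95% counting interval of control replicate 1 ran from 0.0897 to 0.645 TPM, and it contained the value of knockout replicate 1. Foxd1 had 16, 34, 20 and 46 reads at its GENCODE M21 length of 5064 bases, or 0.472, 1.26, 0.552 and 1.09 TPM in the same order. A length of 2532 bases also gave whole reads for Foxd1, with lower counts and wider counting intervals. For both genes the replicates of a group differed by more than the group means did. Foxf1, another forkhead gene at the Foxc2 and Foxl1 locus, had 2, 3, 1 and 14 reads, and Mthfsd, which lies between Foxf1 and Foxc2, was at 5.28, 8.90, 8.19 and 9.69 TPM.

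Dach1 (chromosome 14, 97786853 to 98169765, minus strand) had the highest mean of the 7 genes and the narrowest spread between replicates on the log2 scale. It was at 11.6 and 15.5 TPM in control pools and at 15.7 and 13.6 TPM in knockout-labelled pools, from 567, 607, 822 and 830 reads. The means were 13.5 ± 2.78 and 14.6 ± 1.51 TPM (SD, n = 2 each). The log2 fold change was 0.11 (SE 0.23, 95% interval -0.46 to 0.69, adjusted p = 0.843 by limma). The interval contains the median of all genes, and the sign changed with median-ratio scaling (-0.11) and with quantile normalization (-0.10). Of its EYA partners, Eya2 and Eya3 had log2 fold changes of 0.40 and 0.17, not past the threshold, and Eya1 and Eya4 were under 1 TPM.

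**Figure D1:**
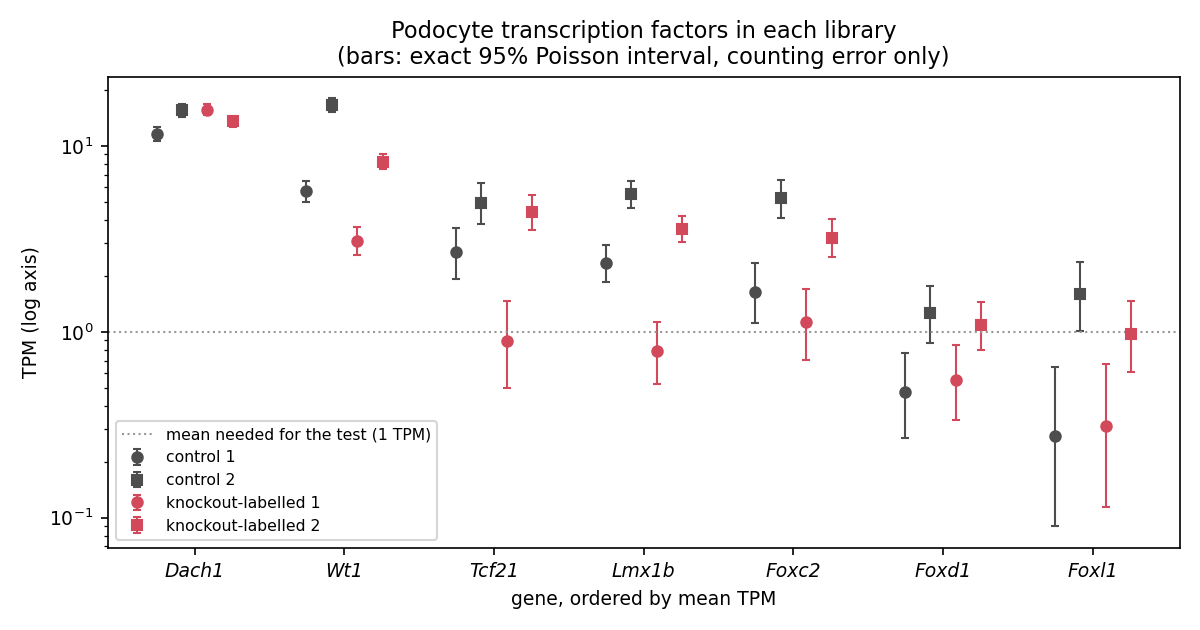
TPM of the 7 transcription factor genes in each library on a log axis, with circles for replicate 1 and squares for replicate 2, grey for control and red for knockout-labelled, and bars for the exact 95% Poisson interval of the reads. The squares lie above the circles of the same colour in both groups for every gene except Dach1, and grey and red overlap for all 7 genes.

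By mean TPM over the 4 libraries the order was Dach1 (14.1), Wt1 (8.41), Tcf21 (3.23), Lmx1b (3.05), Foxc2 (2.80), Foxd1 (0.841) and Foxl1 (0.787). The ranges over the 4 libraries overlapped for each pair of neighbours in this order. Mean levels of the 7 genes were modest: 70.1% of the genes in the table had a lower mean than Dach1, 58.8% a lower mean than Wt1 and 15.3% a lower mean than Foxl1.

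The spread within each group followed the replicate number. The series' text speaks of 2 independent experiments without tying them to these numbers. Replicate 2 was higher than replicate 1 in both groups for 6 of the 7 genes, and for Wt1 by 1.54 log2 units in control pools and 1.42 in knockout-labelled pools. Podocyte and endothelial markers did the same, by a median of 1.11 and 1.04 log2 units for podocyte markers and of 1.12 and 1.03 for endothelial markers. Medians were smaller for mesangial and stromal markers, 0.30 and 0.66, and for parietal epithelial markers, 0.52 and 0.09. Over all genes tested they were 0.28 and 0.09. Dach1 differed by 0.42 and -0.21, unlike the podocyte markers, and the part of cells other than podocytes in its values was not tested. The genes with profiles closest to Wt1, among 10220 genes with a mean of at least 5 TPM, were Ehd3, an endothelial marker of glomeruli (63.4, 149, 34.7 and 76.6 TPM), Ntng2, which encodes a netrin-G (3.33, 10.3, 2.00 and 4.88 TPM), and Synpo, the actin-binding synaptopodin of podocytes (19.97, 47.1, 10.3 and 22.6 TPM). Their distances were 0.15, 0.17 and 0.21 on centred log2(TPM + 1) over 4 libraries.

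The closest profiles to Foxc2 were those of Gimap4, Pi16 and Pcdh12 (distances 0.043, 0.059 and 0.063), the closest to Lmx1b were Nostrin, Slc9a3r2 and Tmem204 (0.19, 0.19 and 0.24), and the closest to Tcf21 were Adamtsl2, Slc9a3r2 and Aplp1 (0.35, 0.37 and 0.38). Pcdh12, a protocadherin, and Nostrin, which binds the endothelial nitric oxide synthase, are endothelial genes. Dach1 was near Tgs1, Parl and Ccdc59 (0.031, 0.032 and 0.035), and 571 genes lay within 0.2 of it, compared with 2 for Wt1, 2 for Lmx1b, 19 for Foxc2 and 0 for Tcf21. With 4 libraries these distances describe the libraries and are not tested.

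The transcription factors were then set against the level of podocyte markers in the same library, since in whole glomeruli fewer podocytes and less RNA per podocyte cannot be told apart. The geometric mean of the 15 markers was 19.7 and 39.1 TPM in control pools and 7.60 and 17.9 TPM in knockout-labelled pools. Wt1 divided by it was 0.289 and 0.424 in control pools and 0.406 and 0.459 in knockout-labelled pools, so the ratio was no lower in the latter. The ratio for Lmx1b was 0.119 and 0.140 in control pools and 0.103 and 0.199 in knockout-labelled pools, and for Tcf21 it was 0.136, 0.126, 0.117 and 0.247. Of the 5 tested factors, Foxc2 and Dach1 had a higher ratio in both knockout-labelled libraries than in either control, as did 77.1% of all genes tested. Foxd1 and Foxl1, under 1 TPM and not tested, also had a higher ratio in both, which makes 4 of 7 genes. A lower ratio in both was seen for 0 of 7, beside 0.489% of all genes tested. By limma on TPM scaled to these markers, Wt1 came to 0.26 on the log2 scale (SE 0.78, adjusted p = 0.760) and Dach1 of 1.28 (SE 0.87, adjusted p = 0.246), beside a median of 1.24 over all genes.

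The markers themselves differed in size. Nphs1, which encodes nephrin of the slit diaphragm, was at 15.3 and 34.7 TPM in control pools and at 1.48 and 8.43 TPM in knockout-labelled pools. Both knockout-labelled values lay below both controls, as for 14.3% of all genes tested. The ratio of Nphs1 to the markers was lower too, 0.778 and 0.886 against 0.194 and 0.470. Podxl, the podocalyxin of the podocyte surface, had ratios of 8.11, 9.08, 8.29 and 9.52. Synpo had ratios of 1.01 and 1.20 in control pools and 1.36 and 1.26 in knockout-labelled pools. Ratios of Wt1 and Podxl thus overlapped between the groups. Those of Nphs1 were lower in both knockout-labelled libraries, and those of Synpo were higher in both. Nphs1, Podxl and Synpo are themselves among the markers whose geometric mean they were divided by. No marker passed over all genes (Nphs1 log2 fold change -2.32, adjusted p = 0.190 by limma).

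Endothelial cells lie outside the labelled target of the deletion, and their markers served as a second reference, chosen after the values were seen. Wt1 divided by their geometric mean was 0.180 and 0.250 in control pools and 0.124 and 0.160 in knockout-labelled pools, and Lmx1b was 0.0739 and 0.0828 against 0.0314 and 0.0697. These 2 genes of 7, both tested, had lower ratios in both knockout-labelled libraries, as did 2.52% of all genes tested. Foxd1, which was not tested, was higher in both, beside 31.1% of all genes tested. Tcf21 had ratios of 0.0843 and 0.0745 in control pools and 0.0357 and 0.0862 in knockout-labelled pools, so the groups overlapped. By limma on this scale the log2 fold change was -0.52 (SE 0.69, adjusted p = 0.907) for Wt1 and -0.50 (SE 0.55, adjusted p = 0.907) for Lmx1b, beside a median of 0.48 over all genes. The endothelial markers had a median log2 fold change of -0.44 themselves as deposited, with 8 of 9 negative and 0 without overlap.

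**Figure D2:**
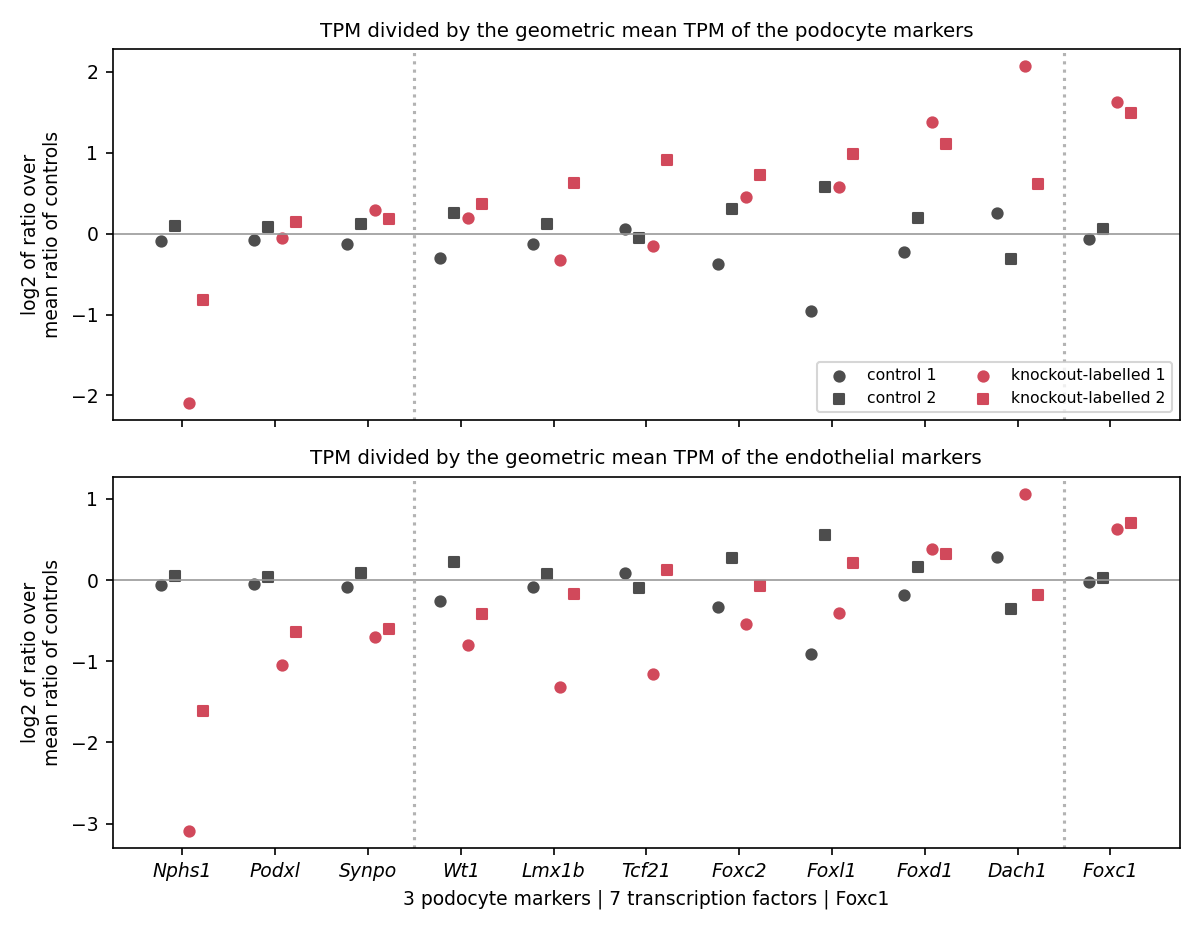
Each gene's TPM divided by the geometric mean of the podocyte markers (top) or of the endothelial markers (bottom), as log2 of the ratio over the mean ratio of control pools, with 1 point per library in grey for control and red for knockout-labelled. Nphs1 lies below control pools in both panels, while Wt1 overlaps control pools in the top panel and lies below them in the bottom panel. Synpo lies above control pools in the top panel and below them in the bottom panel.

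Other transcription factors of podocytes were given by a list of 10 genes, of which 9 were tested and 0 passed. Their median log2 fold change was 0.07, with 3 lower and 2 higher in both knockout-labelled libraries, beside 14.3% and 36.7% of all genes tested. Klf6, an injury-induced zinc finger factor, was at 18.4 and 53.3 TPM in control pools and at 132 and 125 TPM in knockout-labelled pools (log2 fold change 2.00, SE 0.48, and by limma adjusted p = 0.133). Klf15, a factor linked to podocyte differentiation, was at 43.3 and 48.2 TPM and at 27.0 and 28.7 TPM (-0.69, SE 0.16, adjusted p = 0.130). Klf15 and Klf6 are also made outside podocytes. Tead1, a partner of YAP, had a log2 fold change of 0.26, and Zhx3, a zinc finger homeobox repressor, of -0.23.

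Macrophage and parietal cell markers moved with the group labels beside Klf6. All 8 macrophage markers were higher in both knockout-labelled libraries, with sums of 55.1 and 126 TPM in control pools and 589 and 674 TPM in knockout-labelled pools, and all 8 parietal epithelial markers likewise, with sums of 134, 181.9, 737 and 532 TPM. Of all genes tested, 36.7% were higher in both. No marker of either list was at 0. Their part in the values of Klf6 was not tested. Proximal tubule markers had a median log2 fold change of -1.45, with 11 of 12 lower in both knockout-labelled libraries, beside 14.3% of all genes tested, and their part in the values of Klf15 was not tested.

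Partner proteins of the 7 factors were given by a list, of which 17 were analysed and 15 tested. All 15 tested had a positive log2 fold change, beside 66.6% of all genes tested, 10 were higher in both knockout-labelled libraries and 0 passed. The median was 0.32, beside 0.17 over all genes, of which 36.7% were higher in both. Basp1, a corepressor of WT1, was at 0.818 and 4.38 TPM in control pools and at 6.47 and 10.4 TPM in knockout-labelled pools (log2 fold change 1.56, SE 0.57, and by limma adjusted p = 0.245). Wtip, a WT1-interacting LIM protein, was at 9.41, 12.2, 16.94 and 16.96 TPM (0.61, adjusted p = 0.233). Sin3a, a scaffold of an HDAC1 and HDAC2 complex, was at 21.04, 28.8, 34.2 and 36.1 TPM (0.50, adjusted p = 0.301).

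Transcription factors of nephron progenitors and of the tubule had 6 tested members, of which 4 were higher and 1 lower in both knockout-labelled libraries, beside 36.7% and 14.3% of all genes tested, and 0 passed. Pax8 was at 41.8 and 52.7 TPM in control pools and at 68.3 and 79.0 TPM in knockout-labelled pools, and Pax2, which WT1 represses as podocytes form, at 16.8, 19.7, 25.6 and 28.4 TPM. Lhx1, a LIM homeobox gene of early nephrons, was at 18.8, 22.8, 14.2 and 13.4 TPM. The adjusted p by limma was 0.183 for Pax8, 0.225 for Pax2 and 0.236 for Lhx1. Pax2 is also on the list of parietal markers, whose part in these values was not tested.

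Genes reported as targets of WT1, LMX1B, TCF21 or FOXC2 went in both directions. Of the 20 listed, 19 were tested and 0 passed, with 4 lower and 6 higher in both knockout-labelled libraries, beside 14.3% and 36.7% of all genes tested. The median log2 fold change was 0.02, beside 0.17 over all genes. Among those lower in both were Nphs1, given above, and Col4a3 and Col4a4, the basement membrane collagen chains reported to need LMX1B. Col4a3 was at 299 and 220 TPM in control pools and at 109 and 146 TPM in knockout-labelled pools (log2 fold change -1.02, SE 0.24, and by limma adjusted p = 0.131). Both chains were higher in control replicate 1 than in control replicate 2, unlike Lmx1b and the median of the podocyte markers. The part of tubule and other cells in the values of both chains was not tested. Cd2ap, the nephrin adaptor also reported to need LMX1B, was at 23.0 and 35.3 TPM and at 66.3 and 55.1 TPM (1.06, SE 0.24, adjusted p = 0.132). Spry1, an antagonist of receptor tyrosine kinase signalling, was at 6.58, 10.7, 18.1 and 22.6 TPM (1.17, SE 0.28, adjusted p = 0.137), and Wnt4, a signal of nephron formation, at 0.677, 1.52, 3.497 and 4.11 TPM (1.22, adjusted p = 0.168).

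**Figure D3:**
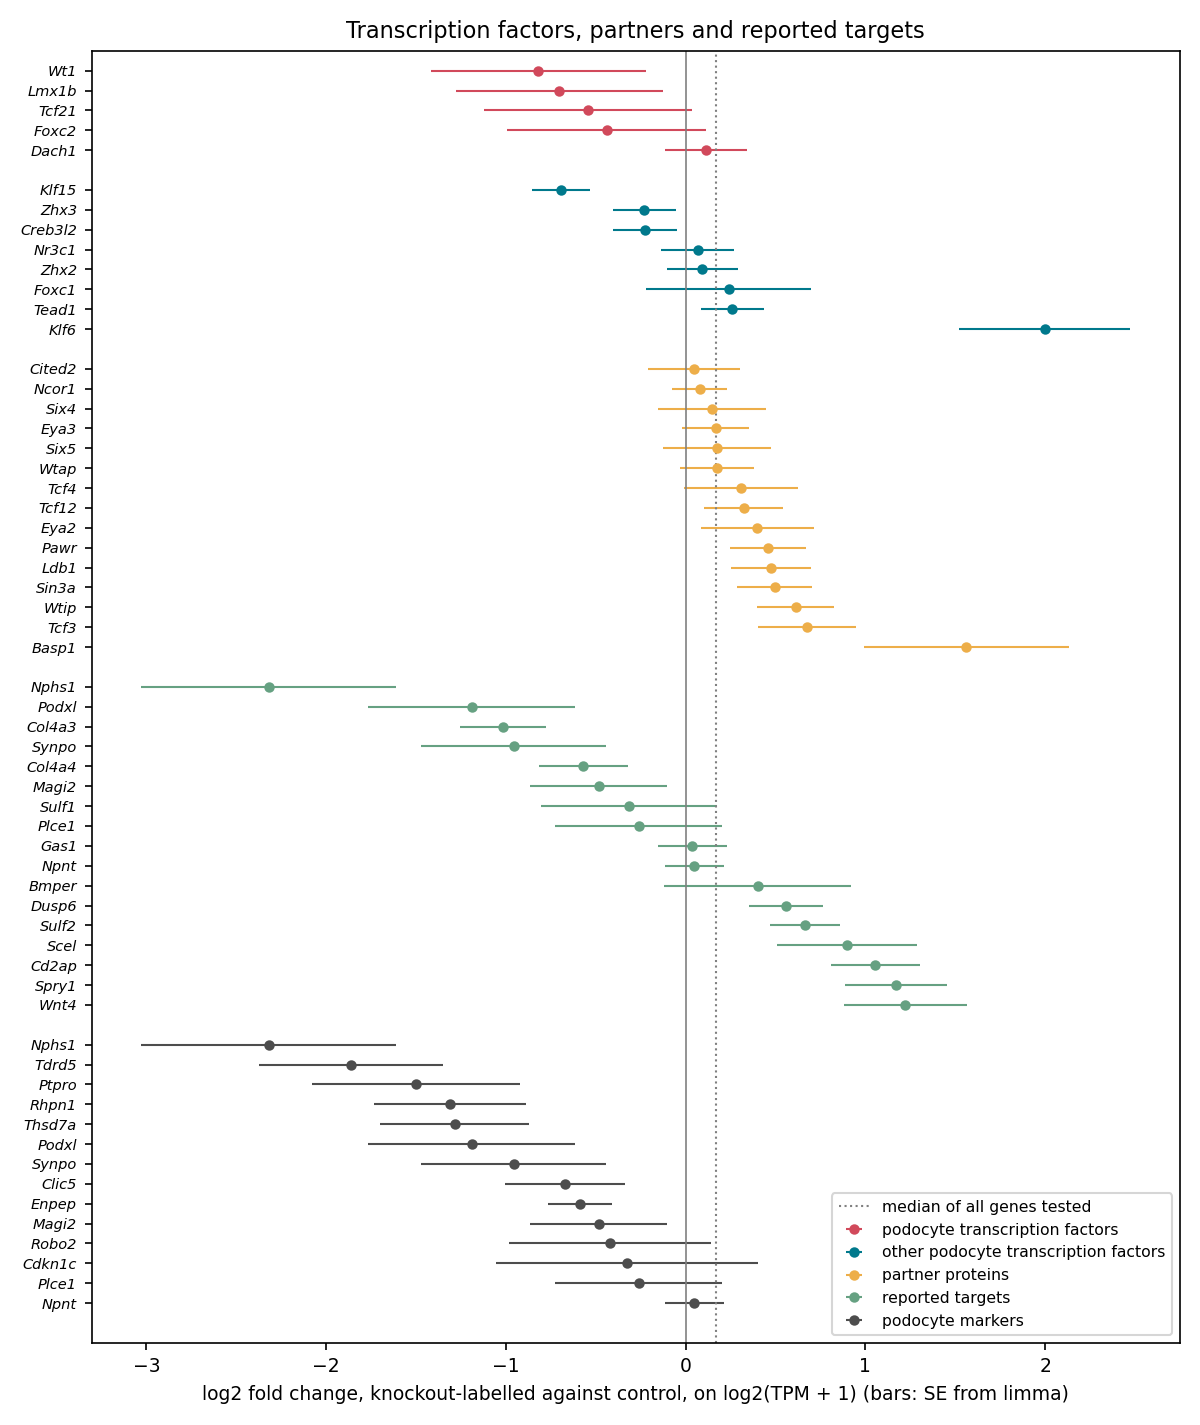
Log2 fold change of knockout-labelled against control libraries with its standard error by limma, for tested genes of each list, with a dotted line at the median of all genes tested (0.17). The intervals of Wt1, Lmx1b, Tcf21 and Foxc2 are wide and centred below 0, the partner proteins lie above 0, and the reported targets shown range from -2.32 for Nphs1 to 1.22 for Wnt4.

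The forkhead family gave 21 other genes, of which 19 were tested and 0 passed, with 6 higher in both knockout-labelled libraries and 0 lower, beside 36.7% and 14.3% of all genes tested. Their median log2 fold change was 0.28, beside 0.17 over all genes. The 3 with the highest mean were Foxi1, a factor of intercalated cells of the collecting duct (130 and 77.0 TPM in control pools, 108 and 67.4 TPM in knockout-labelled pools), Foxo3, a factor of the stress response (35.8, 56.2, 40.3 and 46.0 TPM), and Foxo4 (21.9, 27.5, 23.8 and 31.8 TPM). The groups overlapped for all 3. Foxd2, which shares the 47-base run with Foxd1, was at 1.61, 2.89, 0.701 and 1.71 TPM.

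The values of the 5 tested factors depended on which libraries were compared and on the scaling. Wt1 had a negative log2 fold change in 16 of 17 settings, Lmx1b in 15 of 16, Tcf21 in 14 of 16, Foxc2 in 13 of 16 and Dach1 in 4 of 17. For Wt1 and Lmx1b the only setting that turned the sign was scaling to podocyte markers, with no library left out. The lowest adjusted p of Wt1 over these settings was 0.149.

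**Figure D4:**
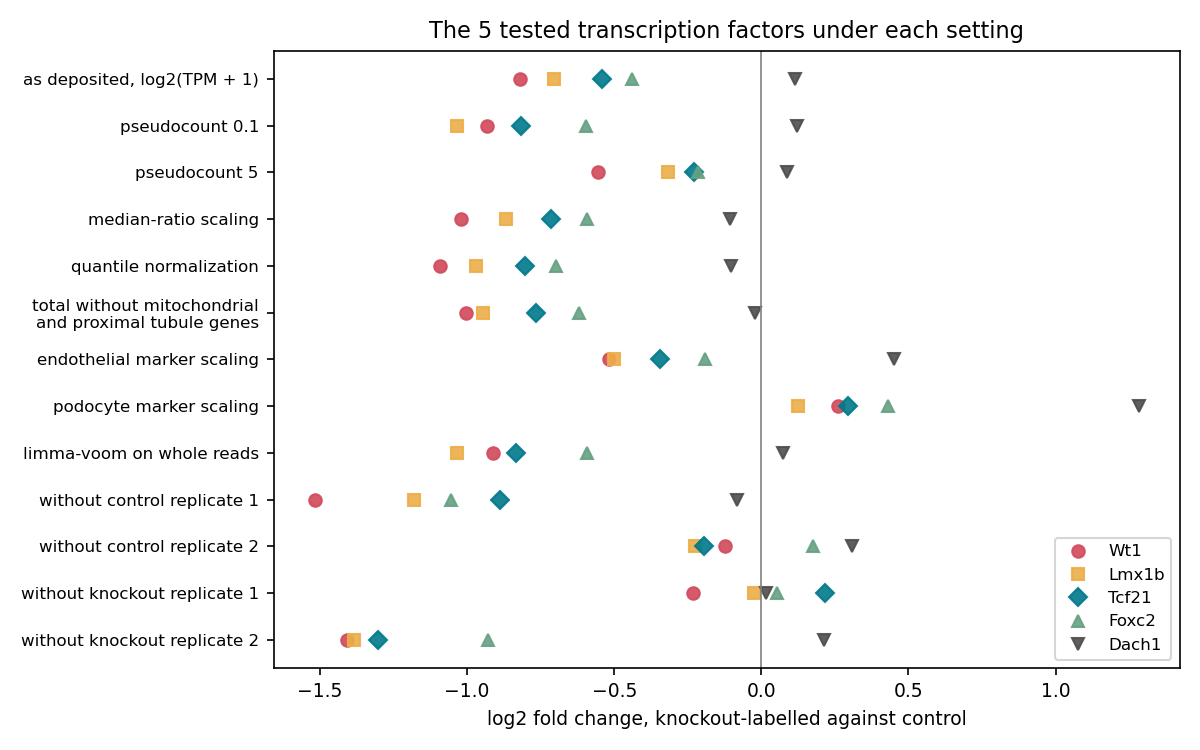
Log2 fold change of the 5 tested transcription factors under other pseudocounts, other scalings, limma-voom on recovered reads, and with each library left out. The values of Wt1, Lmx1b, Tcf21 and Foxc2 lie below 0 in most settings and above 0 when scaled to podocyte markers, and Dach1 ranges from -0.11 with median-ratio scaling to 1.28 when scaled to podocyte markers.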

How the data were processed

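Poly(A) RNA of glomeruli was measured in 4 libraries, 2 control and 2 knockout-labelled. The authors deposited TPM for 22809 Ensembl genes, made with GRCm38.p6, STAR 2.7.9, featureCounts 2.0.0, fastp 0.20 and DESeq2 1.30.1 among the names in the submitters' processing notes, which give no roles. Annotation, strand setting and gene filter are not stated there. Genes were matched by Ensembl identifier without version to GENCODE M21 symbols (22762 matched). TPM times exon length gave whole multiples of 1 step per library, within a relative tolerance of 1e-06, for 22382 genes (98.1%). For Lmx1b the shortest length that gave whole reads, 4977 bases, was used. For Foxd1 the GENCODE M21 length was kept, though a shorter one also gave whole reads. The test was limma 3.58.1 (R 4.3.3, eBayes with trend, no covariate) on log2(TPM + 1) for genes with a mean of at least 1 TPM. It was adjusted by Benjamini-Hochberg over 18612 genes and called under 0.05. The test was also run on simulated reads that gave both libraries of a group the same mean. That simulation lacks the spread between these pools, so it does not check the test at that spread. Fold changes on the log2(TPM + 1) scale understate the change of low genes. The smallest two-sided p of an exact permutation test is 0.333 here. Counting intervals are exact Poisson intervals and cover counting error only. Alternatives were pseudocounts of 0.1 and 5, filters, scalings, no trend, a replicate block, voom on whole reads and each library left out. Named genes were the 7 factors, Hdac1, Hdac2, Foxc1, Ldb1, Nphs1, neighbouring genes, the 3 nearest profiles, the 3 highest other forkhead genes and, of each list, up to 4 genes with the smallest p. Some genes that this rule names are counted in their lists but not reported here. Other genes named (the remaining E proteins and EYA genes, Kap, Npnt, Podxl, Wnt4, Col4a4, Foxd2, Wt1os) were chosen after their values were seen. The CCAAT, GC and TATA motifs were added after a first search found no match. The members and lists were chosen with earlier results of these data known.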

Additional observations from a re-analysis of the deposited data

How the results depend on the processing

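The deposited values limit this comparison to 2 libraries a group with 2 residual degrees of freedom, and 4 of the 7 factors had under 100 reads in each library. No factor passed under any setting tried. Scaling to podocyte markers turned the log2 fold change of Wt1 to 0.26, Tcf21 to 0.29, Lmx1b to 0.12 and Foxc2 to 0.43. Dach1 turned to -0.11 with median-ratio scaling, -0.10 with quantile normalization and -0.023 with mitochondrial and proximal tubule genes left out of the total, and Hdac2 to -0.22, -0.17 and -0.14 under the same settings and -0.044 with limma-voom on whole reads. With each library left out in turn, the log2 fold change ranged from -1.52 to -0.12 for Wt1, -1.30 to 0.22 for Tcf21, -1.38 to -0.02 for Lmx1b, -1.06 to 0.18 for Foxc2, -0.083 to 0.31 for Dach1 and -0.12 to 0.13 for Hdac2. The cause of these changes was not tested. Over all genes 1 was called as deposited, 0 with quantile normalization, with limma without trend and with limma-voom, 1205 with podocyte marker scaling and 510 with endothelial marker scaling, which was added after the data were seen, and between 0 and 2224 with each library left out (2224 when control replicate 2 was left out, 24 for knockout replicate 2 and 0 for control replicate 1). Same-numbered libraries deviated together with a correlation of 0.14 over 18612 genes, but neither the labels nor the mention of 2 independent experiments says that the number pairs them. With the replicate number as a block, the adjusted p was 0.149 for Wt1, 0.262 for Lmx1b, 0.422 for Tcf21, 0.451 for Foxc2 and 0.829 for Dach1, and the block left 1 gene called, as without it. Foxd1 and Foxl1 could be fitted only with no filter or with the smaller total, and gave -0.02 and -0.18 and -0.11 and -0.30.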
